A study of Mus musculus with 12 samples.

Results

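The expressed genes of control cells of ImPSC-1, a line of mouse pancreatic mesenchymal cells taken here as pancreatic stellate cells, were described from 6 of the 12 libraries of the study, with no treatment contrast. The 6 libraries were the controls of both arms of an experiment on Kitl, the gene of stem cell factor, which acts through the receptor tyrosine kinase KIT. The 3 shCtrl libraries (genotype WT, PLKO-1 in the descriptions) came from stable cells of the hairpin arm, and the 3 Egfp_OE libraries came from stable cells overexpressing Egfp, the control of the overexpression arm. The other 6 libraries, shKitl and Kitl_OE, entered only the gene filter, the scaling of counts and the estimate of the spread in the tests, and 1 overlap. All cells grew in DMEM with serum, pyruvate and antibiotics, and polyadenylated RNA was sequenced. A P number in each description, whose meaning the labels do not state, ran from 14 to 16 in shCtrl and from 17 to 19 in Egfp_OE, so that P number and line cannot be told apart. Whether a line is 1 clone, and whether the replicates were separate cultures, is not stated, and the spread that p-values measure here may thus be technical. Genes were ranked by the median over the 6 libraries of their TPM, the deposited level per unit of gene length scaled to the same total in each library.

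Pancreatic stellate cells are the resident mesenchymal cells of the pancreas. In the quiescent state they store retinoid in lipid droplets, and on activation, which culture on plastic also causes, they lose these droplets, proliferate, lay down fibrillar collagen and take on contractile proteins such as smooth muscle actin. They exchange growth factors, cytokines and chemokines with the surrounding epithelial, endothelial and immune cells, which makes the set of ligands and receptors they express a part of their known biology.

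Reads counted in genes ran from 24979742 to 33517686 per library, and 3 reads, taken as the floor of detection, corresponded to 0.0895 to 0.12 CPM. Egfp_OE replicate 2 stood apart from the other 5 libraries. ERCC spike-in RNA took 1.35% of its counts against 0.499% to 0.586% in the others. Its Spearman correlation with the other libraries over genes at 1 TPM or more was 0.867 to 0.92, against 0.954 to 0.99 for the 10 pairs among the others. Its level also differed with gene length. When genes were divided by exonic length into 5 classes of equal size, its median log2 level relative to the median of the other 5 libraries was 0.30 in class 1 (the shortest) and -1.09 in class 5 (the longest), whereas the other libraries stayed between -0.20 and 0.21 in every class. Of 8344 protein-coding genes at a median of 10 TPM or more, 58.1% had their lowest value in this library. Several results that rest on this library are given with and without it, and its part in the differences between genes was not tested.

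**Figure D1:**
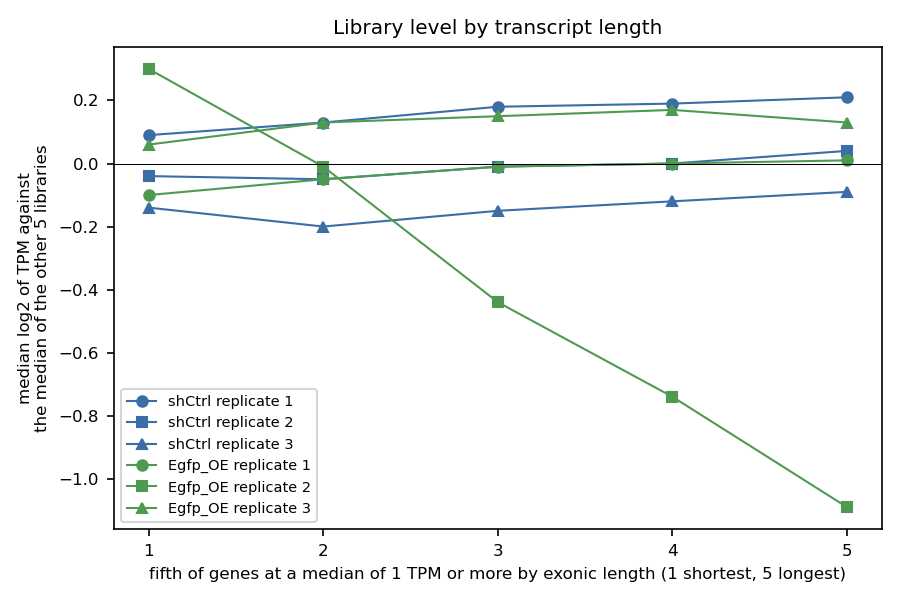
Median log2 of TPM in each library against the median of the other 5 libraries (vertical axis), for the genes at a median of 1 TPM or more in 5 classes of exonic length (horizontal axis, 1 shortest, 5 longest). The other 5 libraries stay between -0.20 and 0.21, and the line of Egfp_OE replicate 2 runs from 0.30 to -1.09.

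In the control cells 13389 genes reached a median of 1 TPM, 11595 of them protein-coding, out of 49671 gene entries. Without Egfp_OE replicate 2 the number was 13446, and 11640 genes reached 1 TPM in every one of the 6 libraries. At 10 TPM or more there were 8633 genes, at 100 TPM or more 1816, and at 1000 TPM or more 112. The 10 most abundant genes of a library held a median of 9.93% of its TPM (range 7.55% to 17.3%), the 100 most abundant held 29.2% and the 1000 most abundant 61.4%. Between 340 and 615 genes held 50% of a library's TPM, with the fewest in Egfp_OE replicate 2 and the most in shCtrl replicate 1.

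Lgals1 and Eef1a1 had the highest medians among nuclear protein-coding genes. Lgals1, which encodes galectin-1, a secreted galactoside-binding lectin of mesenchymal cells, was at a median of 9261 TPM. Its values were 8840, 9804 and 9682 TPM in shCtrl and 6870, 11106 and 7484 TPM in Egfp_OE, so that the lines overlapped. Eef1a1, a translation elongation factor gene, was at 9486, 10565 and 10243 TPM in shCtrl and 6901, 4848 and 7982 TPM in Egfp_OE, a median of 8734 TPM. Their order rests on Egfp_OE replicate 2: without it the medians were 8840 TPM for Lgals1 and 9486 TPM for Eef1a1. Next among nuclear protein-coding genes were the ribosomal stalk protein gene Rplp1 at 6128, the ferritin heavy chain gene Fth1 at 6089 and the ribosomal stalk protein gene Rplp0 at 4584 TPM. Without Egfp_OE replicate 2, Fth1 was above Rplp1, at 5711 and 5677 TPM. Beside these stood the ribosomal protein genes Rps12 (4580 TPM), Rpl8 (4257), Rps2 (3701) and Rps26 (3649). Of the 100 most abundant nuclear genes, 32 encoded cytosolic ribosomal proteins, 63 were other protein-coding genes and 5 were non-coding genes or pseudogenes.

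Beside ribosomal protein genes and non-coding entries, the first 30 held genes of other roles. Actb, which encodes beta-actin, was at 3983 TPM and the myosin light chain gene Myl6 at 2294 TPM. Ftl1, the ferritin light chain gene, was at 3887 TPM, and Hsp90ab1, a cytosolic chaperone gene, at 3309 TPM. Cd63, a tetraspanin of late endosomes and exosomes, was at 3281 TPM, the calcium-binding protein genes S100a11 and S100a6 were at 2564 and 2416 TPM, and Mif, which encodes a secreted cytokine, was at 2300 TPM. Spp1, the gene of the secreted phosphoprotein osteopontin, was at 2812 TPM, with 3066, 1601 and 1323 TPM in shCtrl and 2705, 3401 and 2919 TPM in Egfp_OE. The shCtrl replicates 2 and 3 were the lowest, and replicate 1 lay within the range of the Egfp_OE libraries.

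Of these 30 genes, 17 had a highest value less than 2 times the lowest. In 6 of them every shCtrl library was above every Egfp_OE library, and in 0 of them the reverse held. Among all 13389 genes at 1 TPM or more, 25% had no overlap between the lines. Eef2, the elongation factor that moves the ribosome along the message, was the one of the 30 that passed the edgeR test between the lines. Its values were 4069, 5148 and 4880 TPM in shCtrl and 2219, 1021 and 2551 TPM in Egfp_OE (log2 difference -1.24 ± 0.23 SE, adjusted p = 0.0324, edgeR quasi-likelihood test). The adjusted p in edgeR was 0.202, 0.178 and 0.0958 without shCtrl replicate 2, shCtrl replicate 3 and Egfp_OE replicate 3. It ran from 2.16e-05 to 0.202 over 9 refits by edgeR or DESeq2. The edgeR fit with only the 6 control libraries, which called 0 genes, was not among these refits.

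The non-coding entries Gm23935, CT010467.1 and Mir6236 varied most among these 30 genes, whereas the pseudogene Gm10736 ran only from 1936 to 3799 TPM. Gm23935, annotated as a microRNA gene, had the highest median of all genes, 26857 TPM, but ran from 9906 TPM in shCtrl replicate 1 to 91123 TPM in Egfp_OE replicate 1. CT010467.1, annotated as ribosomal RNA, ran from 1658 to 20096 TPM and Mir6236 from 1162 to 8452 TPM in these same libraries. Together with Gm24270 they took from 1.36% to 13% of the TPM of a library, which lowers every other gene's TPM by the same share. Mitochondrial transcripts held 3.19% to 4.68%, led by mt-Rnr2, the large ribosomal RNA, at 7754 TPM and by mt-Nd1, a complex I subunit, at 6487 TPM. Rescaling TPM over nuclear protein-coding genes, chosen after the data were seen, put the share of the first 10 genes at 6.56%.

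**Figure D2:**
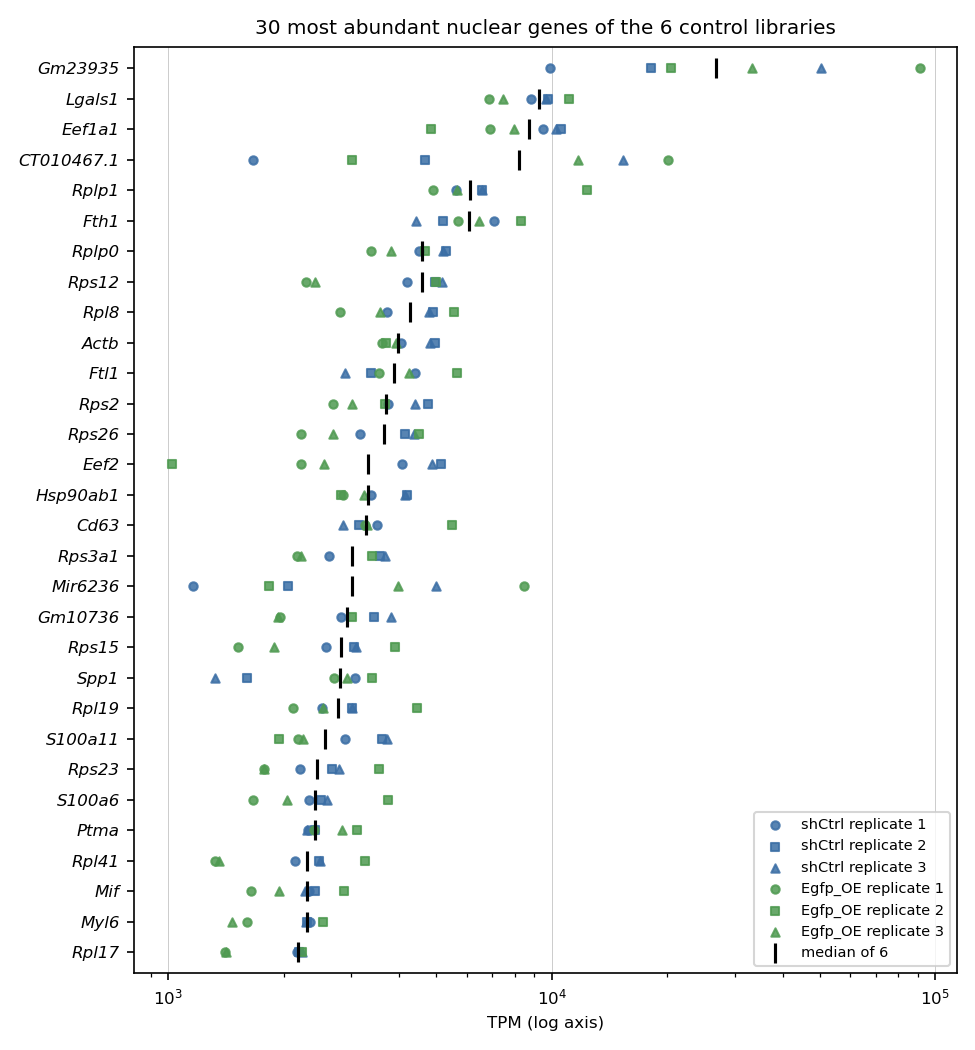
TPM (horizontal log axis) of the 30 nuclear genes with the highest median, 1 point per library (blue shCtrl, green Egfp_OE, shape by replicate) and a bar at the median of 6. Gm23935, CT010467.1 and Mir6236 spread over 7.27 to 12.1 times between lowest and highest library, and Actb over 1.37 times.

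The 4 genes used as stellate cell markers were present in every library. Col1a1 (ENSMUSG00000001506, chromosome 11, 94936224 to 94953042, GRCm38), the alpha-1 chain of type I collagen, measured 867, 425 and 301 TPM in shCtrl and 1001, 664 and 708 TPM in Egfp_OE, a median of 686 TPM and rank 176 among all genes. The shCtrl replicate 1 lay within the range of Egfp_OE and the other shCtrl libraries lay below it (log2 difference 0.73 ± 0.44 SE, adjusted p = 0.318, edgeR). Acta2 (ENSMUSG00000035783, chromosome 19, 34241090 to 34255590), smooth muscle actin and the classical mark of activation, measured 996, 396 and 269 TPM in shCtrl and 365, 177 and 167 TPM in Egfp_OE. A single library, shCtrl replicate 1, held the top value, and the lines overlapped (log2 difference -1.07 ± 0.71 SE, adjusted p = 0.361, edgeR).

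Pdgfrb (ENSMUSG00000024620, chromosome 18, 61045150 to 61085061), the receptor of platelet-derived growth factor B and a mark of stellate cells and pericytes, measured 134, 72 and 51 TPM in shCtrl and 108, 51.5 and 97.5 TPM in Egfp_OE. Its means were 85.7 ± 43.1 and 85.6 ± 30 TPM (SD, n = 3 each), closer to each other than the replicates within either line. Cxcl12 (ENSMUSG00000061353, chromosome 6, 117168535 to 117181367), the stromal chemokine that binds CXCR4, measured 161, 88.5 and 70.7 TPM in shCtrl and 213, 266 and 233 TPM in Egfp_OE. All Egfp_OE libraries were above all shCtrl libraries, but the difference did not pass the test (log2 difference 1.34 ± 0.38 SE, adjusted p = 0.0888, edgeR). The adjusted p lay between 0.0114 and 0.32 over the 9 refits by edgeR or DESeq2. It passed by DESeq2 (0.0114) and in edgeR without shCtrl replicate 1 (0.0462).

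Of 20 genes listed for fibroblasts and stellate cells, 19 were at 1 TPM or more, 16 at 10 or more and 11 at 100 or more, against 53.2% of the 21811 protein-coding genes of the table at 1 TPM or more. The highest were the small proteoglycan biglycan (Bgn) at 1278 TPM, the intermediate filament vimentin (Vim) at 1235, the matricellular protein SPARC (Sparc) at 1202, Col1a1 at 686 and S100a4, a calcium-binding protein, at 560 TPM. Fibronectin (Fn1) was at 512 TPM and the partner collagen chain Col1a2 at 413 TPM. The lowest were Lum, which encodes the proteoglycan lumican, at 0.346 TPM, Fap, the gene of the surface protease fibroblast activation protein, at 1.11, the matrix protein gene Dpt at 6.38 and the matricellular protein gene Postn at 9.67 TPM. Dpt ran from 0.279 to 45.4 TPM and Dcn, the gene of the proteoglycan decorin, from 26.4 to 306 TPM, with Egfp_OE replicate 2 at the top for Dcn. By edgeR 0 of the 20 passed the test between the lines (3 higher and 3 lower in Egfp_OE at an unadjusted p under 0.05, and 2 higher and 3 lower of 19 by DESeq2), where 0.511% of all 15271 genes tested were called higher and 0.74% lower in Egfp_OE. Over all genes, 13.8% were higher and 10.6% lower at an unadjusted p under 0.05 in edgeR, and 5.57% and 4.52% of 14721 genes by DESeq2.

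Of 13 contractile genes of myofibroblasts and smooth muscle, 11 reached 1 TPM, 8 reached 10 and 5 reached 100 TPM. Tropomyosin (Tpm1) was the highest at 344 TPM, followed by Acta2 at 317, caldesmon (Cald1) at 276, Tpm2 at 193 and the myosin regulatory light chain gene Myl9 at 118 TPM. Tagln, which encodes the actin-binding protein transgelin, was at 30.5 TPM and Cnn1, calponin, at 4.73 TPM with a range of 1.2 to 22.9. The only genes of the list under 1 TPM were Myh11, smooth muscle myosin heavy chain, at 0.0977 TPM and Synpo2, synaptopodin-2, at 0.623 TPM. Other smooth muscle genes of the list, Actg2, Lmod1 and Smtn, were at 1 TPM or more. Desmin (Des), an intermediate filament used to mark stellate cells in tissue, was at 1.58 TPM.

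The list for retinoid and lipid storage of quiescent stellate cells was split, with 13 of 21 genes at 1 TPM or more. Lrat, the enzyme that esterifies retinol for storage, had a median of 0 TPM and 3 reads in all 6 libraries together, and Plin1, a lipid droplet coat protein, also had a median of 0. Reln, which encodes the secreted glycoprotein reelin, Stra6, the retinol uptake receptor, and Rbp4, the plasma retinol carrier, were at 0.00695, 0.0851 and 0.391 TPM. Higher levels were measured for Crabp1, an intracellular retinoic acid binding protein, at 297 TPM, for the widely expressed droplet protein gene Plin2 at 168, and for Nes, the intermediate filament nestin, at 111 TPM. Crabp1 was at 250 to 348 TPM in the other 5 libraries and at 1784 TPM in Egfp_OE replicate 2. Fabp4, a fatty acid binding protein, was at 22.1 TPM and the adipogenic nuclear receptor gene Pparg at 13.3 TPM. Of 15 tested genes of this list, edgeR called 1 higher and 0 lower in Egfp_OE. At an unadjusted p under 0.05 in edgeR, 7 were higher and 2 lower, against 13.8% and 10.6% of all genes. DESeq2 called 4 higher and 2 lower of 15, against 5.57% and 4.52%. The lines did not overlap for 7 of the 13 genes at 1 TPM or more, against 25% of all such genes.

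Of 29 transcription factors of mesenchyme, 27 were at 1 TPM or more and 20 at 10 or more. Twist1, a regulator of mesenchymal identity, was at 97.4 TPM and spread only from 87.9 to 111 TPM, and Osr1, a factor of trunk mesoderm, was at 86.9 TPM with a range of 74.8 to 107. Srf, the serum response factor of contractile genes, was at 81 TPM, the zinc finger factor gene Snai2 at 74.1 and Tead1, a partner of YAP, at 60.3 TPM. Factors known from the mesenchyme of the embryonic gut and pancreas were among those present, with Barx1 at 59.6, Foxf2 at 43.7, Gata6 at 16.7, Gata4 at 14.3, Isl1 at 5.39 and Nkx3-2 at 3.08 TPM. Barx1 was at 73.9, 79 and 66.8 TPM in shCtrl and at 52.5, 32.6 and 25.3 TPM in Egfp_OE, without overlap, and did not pass the test (log2 difference -0.86, adjusted p = 0.247, edgeR). Tcf21, a factor of visceral fibroblasts, had 1 read in the 6 libraries together, and Tlx1, a factor of splenic mesenchyme, had 0.

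Among 12 genes of adventitial and progenitor fibroblasts 7 reached 1 TPM, led by the surface protein gene Ly6a (also called Sca-1) at 382 TPM, Dlk1, a Notch ligand-like protein of progenitors, at 126, Ly6c1 at 118 and Cd248, endosialin, at 66.4 TPM. The defining markers Pi16 and Dpp4 were at 0.0302 and 0.00685 TPM. Of 10 pericyte genes 6 reached 1 TPM, of which the signalling regulator gene Rgs4 (13.1 TPM) and the adhesion molecule gene Mcam (10.6 TPM) were the highest. The potassium channel subunit genes Abcc9 and Kcnj8, which define pericytes, were at 0 and 0.0237 TPM.

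Markers of other pancreatic cells were at or near the floor, with a few single genes standing out. In bulk RNA, a few cells of another type and a low level in every cell cannot be told apart. For acinar cells, Cpa1, Pnlip, Cela2a, Ptf1a and Zg16 had 0 reads in all 6 libraries, which allows up to 3 reads each, and Prss2 was at 0.285 TPM. Cela1, which encodes elastase 1, was the one of 12 acinar genes above 1 TPM, at 13.1, 6.91 and 5.01 TPM in shCtrl and 13.8, 21 and 16.5 TPM in Egfp_OE. For islets, Ins1, Ins2, Sst, Ppy, Pdx1 and Neurod1 had 0 reads, and 1 of 12 genes, the homeobox gene Nkx6-1, reached a median of 1 TPM, at 1.5 TPM. Nkx6-1 was at 2.31, 3.31 and 2.75 TPM in shCtrl and under 1 TPM in Egfp_OE, at 0.689, 0.32 and 0.39 TPM. For ducts and other epithelia 4 of 15 reached 1 TPM: Spp1, the transcription factor gene Sox9 (33.4 TPM), the keratin gene Krt19 (4.82) and the mucin gene Muc1 (2.15). The epithelial adhesion genes Epcam and Cdh1 were at 0.0485 and 0.0251 TPM, the keratin genes Krt8 and Krt18 at 0.191 and 0.346, and Cldn4, a tight junction gene, had 0 reads.

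Endothelial genes reached 1 TPM in 2 of 12 cases, Kdr (1.46 TPM), the main VEGF receptor, and the secreted factor gene Egfl7 (1.43), while Pecam1, Cdh5 and Erg were at 0.065, 0.124 and 0 TPM. Of 12 blood and immune genes 3 reached 1 TPM: the lipopolysaccharide co-receptor gene Cd14 at 34 TPM, the lysosomal protein gene Cd68 at 6.84 and the CSF1 receptor gene Csf1r at 1.64. The pan-leukocyte gene Ptprc had 2 reads in the 6 libraries together, and Tyrobp, Cd3e and Ms4a1 had 0. Of 8 mast cell genes 1, the transcription factor gene Gata2, reached 1 TPM, at 10.9 TPM. Among 12 mesothelial genes 3 did, Msln (mesothelin, 57.2 TPM), Bnc1 (5.22) and Krt19, with Wt1 at 0.058 and Upk3b at 0.237 TPM. The Schwann cell and neuron list had 1 of 10, the tubulin gene Tubb3 at 37 TPM, with Sox10 at 0. Adipocyte genes reached 1 TPM in 3 of 8 cases and cartilage and bone genes in 2 of 9, and 0 of 7 skeletal muscle genes did. Leaving out Egfp_OE replicate 2 altered none of the 17 counts of lineage genes.

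**Figure D3:**
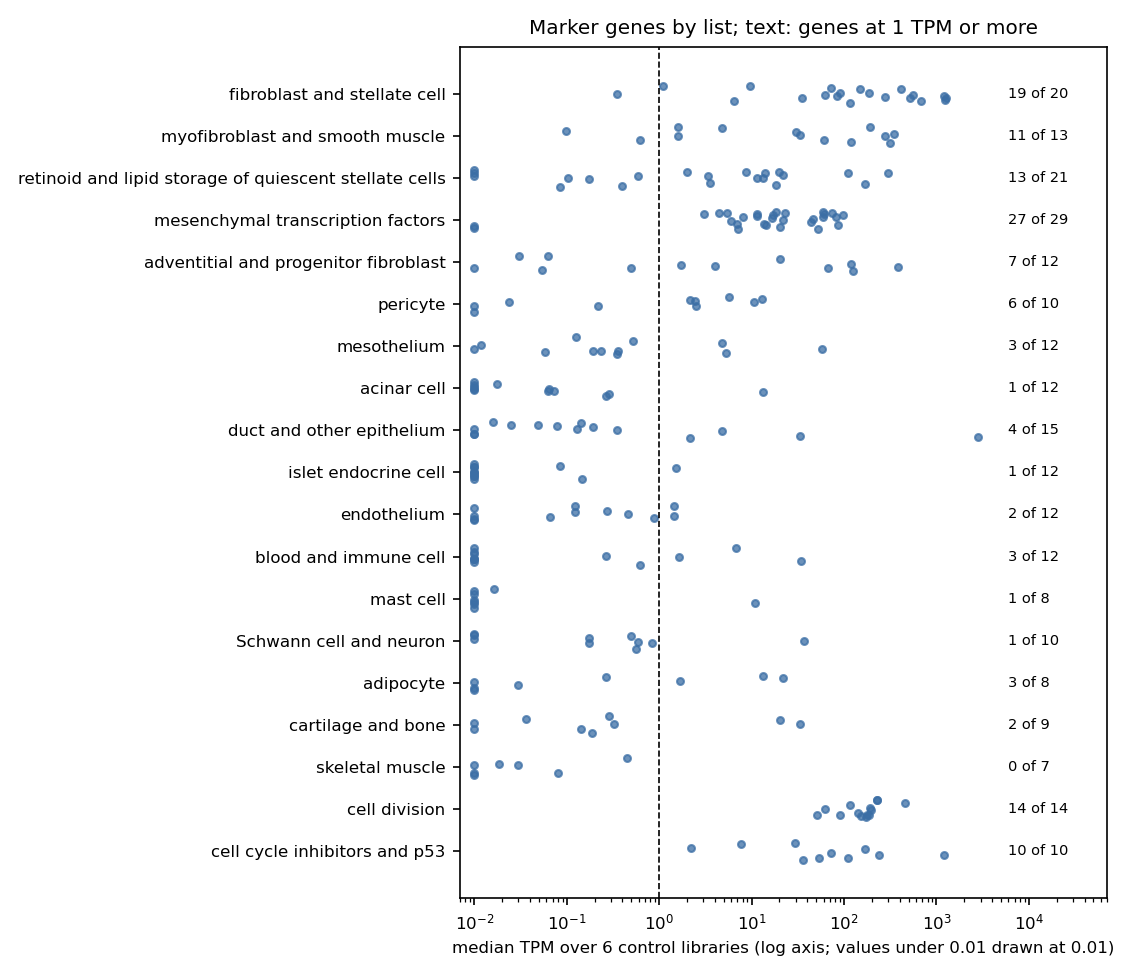
Median TPM over the 6 control libraries (horizontal log axis, values under 0.01 drawn at 0.01) of every gene of 17 lineage lists and 2 cell state lists, 1 point per gene, with the number at 1 TPM or more (dashed line) beside each list. Fibroblast genes and mesenchymal factors lie mostly right of the line, 19 of 20 and 27 of 29, and acinar, islet and mast cell genes mostly left of it.

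The cells carried the transcripts of dividing cells together with those of cell cycle inhibitors. All 14 genes listed for cell division were at 10 TPM or more, led by the replication clamp gene Pcna at 455 TPM, the topoisomerase gene Top2a at 228 and the cyclin gene Ccnd1 at 226 TPM. Mki67, the proliferation antigen, had a median of 143 TPM and its lowest value, 28 TPM, in Egfp_OE replicate 2. All 10 genes for inhibitors and the p53 pathway were at 1 TPM or more. Cdkn2a, which encodes the inhibitors p16 and ARF, was the highest of them, with 1160, 710 and 562 TPM in shCtrl and 1240, 3634 and 1611 TPM in Egfp_OE. The lines did not overlap for Cdkn2a, and the test was not passed (log2 difference 1.68, adjusted p = 0.0888, edgeR). The p53 target Cdkn1a was at 240 TPM and the p53 gene Trp53 at 168 TPM. By edgeR 0 of these 24 genes passed the test. At an unadjusted p under 0.05 in edgeR, 0 of the 14 division genes were higher and 4 lower in Egfp_OE. Of the 10 inhibitor and p53 genes, 3 were higher and 0 lower, against 13.8% and 10.6% of all genes. DESeq2 called 0 higher and 1 lower of 14, and 2 higher and 0 lower of 9, against 5.57% and 4.52%. The lines did not overlap for 8 of the 14 and 4 of the 10, against 25% of genes at 1 TPM or more.

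Of 184 genes for secreted or membrane ligands 93 reached 1 TPM (50.5%), 46 reached 10 and 7 reached 100 TPM, close to the 53.2% of all protein-coding genes. Kitl (ENSMUSG00000019966, chromosome 10, 100015630 to 100100416), the gene targeted in the other arms of the study, was at 42.6, 39.2 and 37.5 TPM in shCtrl and 38, 12.6 and 41.6 TPM in Egfp_OE. The other 5 libraries lay within 37.5 to 42.6 TPM while Egfp_OE replicate 2 was at 12.6 (log2 difference -0.34 ± 0.25 SE, adjusted p = 0.414, edgeR, and -0.04 without that library). Kitl, with 5911 exonic bases, belongs to class 4 by length, in which the median log2 level of Egfp_OE replicate 2 was -0.74. The spread of genes about that median was not measured, and a link between length and the Kitl level was not tested. Among 45 ligands of receptor kinases, 33 of which were at 1 TPM or more, 9 were higher than Kitl.

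Among the listed ligand genes the highest medians were those of Ptn, which encodes the heparin-binding growth factor pleiotrophin, at 470 TPM, and Csf1, the growth factor of macrophages, at 414 TPM. Without Egfp_OE replicate 2 the order was Csf1 at 508, Ccl2 at 362, Ccl7 at 292 and Ptn at 279 TPM, and Ptn was below Csf1 in all 3 shCtrl libraries. Csf1 was at 508, 615 and 594 TPM in shCtrl and at 320, 138 and 302 TPM in Egfp_OE, without overlap (log2 difference -1.13, adjusted p = 0.051, edgeR). Behind them in the same class were the VEGF family gene Vegfb at 176 TPM, the epithelial growth factor gene Fgf7 at 80.7, Vegfd at 78.9 and the EGF receptor ligand gene Hbegf at 78.1 TPM. The neurotrophin gene Bdnf was at 26.3 TPM, while Igf1, a growth factor of many fibroblasts, was at 2.09 TPM.

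In the TGF-beta family 11 of 20 ligand genes reached 1 TPM (10 without Egfp_OE replicate 2). The activin chains Inhba (53 TPM) and Inhbb (25.1), the growth differentiation factors Gdf11 (38) and Gdf15 (22.4) and Tgfb3 (13.1) were the highest, and Tgfb1, the main fibrogenic cytokine, was at 11.9 TPM. Wnt and R-spondin ligands were present in 4 of 23 cases, led by Wnt5a, a non-canonical Wnt, at 12.6 TPM and the R-spondin genes Rspo3 and Rspo2 at 6.69 and 2.04. Without Egfp_OE replicate 2, 2 of the 23 reached 1 TPM. Of 8 Hedgehog and Notch ligands, Jag1 alone reached it, at 2.35 TPM.

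Chemokines held 4 of the 7 listed ligand genes above 100 TPM. The genes of the secreted proteins Mif and Spp1, described above, were not in the ligand lists. Ccl2 and Ccl7, which attract monocytes, were at 396 and 348 TPM, Cxcl12 at 187 and Cxcl10, an interferon-induced chemokine, at 156 TPM. Ccl2 was at 552, 362 and 288 TPM in shCtrl and 430, 787 and 226 TPM in Egfp_OE, with overlap. Cytokine genes reached 1 TPM in 12 of 32 cases and 10 TPM in 4, among them Tnfsf12 (TWEAK) at 30.2 TPM, the gp130 cytokine gene Clcf1 at 27.1 and Tnfsf9 at 16.3. Il6 and Lif, inflammatory cytokines known from stellate cells near tumours, were at 2.53 and 2.88 TPM. Axon guidance and ephrin ligands were present in 18 of 20 cases, with Efnb2 at 67.5, the repellent Slit2 at 32.2 and the netrin gene Ntn1 at 29.6 TPM.

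Secreted antagonists and binding proteins were present in 17 of 28 cases (16 without Egfp_OE replicate 2) and included some abundant secreted products. Grem1, an antagonist of bone morphogenetic proteins, was at 632, 301 and 216 TPM in shCtrl and 662, 363 and 740 TPM in Egfp_OE. Igfbp7, an insulin-like growth factor binding protein, was at 435 TPM, the follistatin-like gene Fstl1 at 306 and Igfbp6 at 180 TPM. Dkk1, Dkk4, Sostdc1, Sfrp5 and Sost, antagonists of Wnt or bone morphogenetic protein signalling, had medians of 0.

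Of 329 listed receptor genes 177 reached 1 TPM (53.8%), 108 reached 10 and 16 reached 100 TPM. The highest was Tnfrsf12a, the receptor of TWEAK, at 860, 1248 and 1262 TPM in shCtrl and 863, 948 and 1054 TPM in Egfp_OE, with overlap. Among 58 receptor tyrosine kinases 31 reached 1 TPM. Axl, the receptor of GAS6, was at 560 TPM, the collagen receptor gene Ddr2 at 131, the Wnt receptor gene Ryk at 110, the ephrin receptor gene Epha2 at 108 and Fgfr1 at 98.9 TPM. Met, the receptor of hepatocyte growth factor, was at 57.4, Pdgfra at 34.9 and Egfr at 15.9 TPM. Pdgfra ranged from 9.09 TPM in shCtrl replicate 3 to 73.1 TPM in Egfp_OE replicate 3.

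Kit (ENSMUSG00000005672, chromosome 5, 75574916 to 75656722), the receptor of stem cell factor, had 3 reads in the 6 libraries together. It was at 0.0247, 0.0136 and 0 TPM in shCtrl and at 0 TPM in the 3 Egfp_OE libraries, below the limit of 3 reads in each.

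The integrin list gave 14 of 26 genes at 1 TPM or more, led by the common beta chain Itgb1 at 514 TPM, its fibronectin-binding partner Itga5 at 162, the vitronectin receptor chains Itgb5 and Itgav at 133 and 88.9, and Itga3 at 64.1 TPM. Itga11, a collagen receptor of activated fibroblasts, was at 1.83 TPM. In the TGF-beta family 10 of 14 receptor genes were present, with the co-receptors Tgfbr3 and Eng at 76.5 and 59.6, and Tgfbr2 and Tgfbr1 at 50.1 and 15.2 TPM. Wnt, Hedgehog and Notch receptors were present in 20 of 25 cases, with the Hedgehog co-receptor gene Gas1 at 155, Smo at 101, Fzd1 at 71.7 and Notch2 at 46.1 TPM, and Ptch1, receptor and target of Hedgehog signalling, at 8.78 TPM.

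Cytokine receptors were present in 36 of 58 cases, with the lymphotoxin and TNF receptor genes Ltbr and Tnfrsf1a at 160 and 147 TPM and Il6st, the shared gp130 chain, at 97.9 TPM. Chemokine receptors were the sparsest class, at 2 of 22: the CXCL12 scavenger Ackr3 at 2.32 and Cxcr5 at 1.19 TPM. Without Egfp_OE replicate 2, 1 of the 22 reached 1 TPM. Among 64 receptors for lipids, peptides and amines 26 were present, with the thrombin receptor gene F2r at 215 and the lysophosphatidic acid receptor gene Lpar1 at 51.6 TPM. Nuclear receptors were present in 18 of 26 cases, led by the retinoic acid receptor gene Rarg at 95.5, Nr2f2 at 61.4 and the glucocorticoid receptor gene Nr3c1 at 58.8 TPM. The vitamin D receptor gene Vdr was at 5.27 TPM. Receptors of semaphorins, netrins and slits reached 1 TPM in 12 of 21 cases, with the plexin gene Plxnb2 at 294 TPM, and pattern recognition genes in 8 of 15, with the viral RNA sensor gene Ddx58 at 45.9 TPM.

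When 81 known pairs were examined, both genes reached 1 TPM in 42, the ligand alone in 23, the receptor alone in 14 and neither in 2. Pairs with both genes present included Col1a1 with Ddr2 (686 and 131 TPM), Tnfsf12 with Tnfrsf12a (30.2 and 1001), Gas6 with Axl (33 and 560), Hgf with Met (10.2 and 57.4), Pdgfc with Pdgfra (32.8 and 34.9) and Hbegf with Egfr (78.1 and 15.9). Efnb2 and its receptor gene Ephb4 were at 67.5 and 38.8, Ntn1 and Unc5b at 29.6 and 48.2, and Tgfb1 and Tgfbr2 at 11.9 and 50.1 TPM. Both genes were also present for Pdgfd with Pdgfrb (4.44 and 84.8 TPM) and for Cxcl12 with Ackr3 (187 and 2.32). Some of these pairs were lopsided, such as Csf1 at 414 TPM with Csf1r at 1.64, and Tslp at 2.75 TPM with Crlf2 at 46.4.

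Kitl with Kit was one of the pairs with the ligand alone, at 38.6 and 0 TPM. Others were Cxcl12 with Cxcr4 (187 and 0.292 TPM), Ccl2 and Ccl7 with Ccr2 (396 and 348 against 0), Vegfb with Flt1 (176 and 0.464), Bdnf with Ntrk2 (26.3 and 0.00645), Cxcl1 with Cxcr2 (17.3 and 0.0323) and Ntn1 with Dcc (29.6 and 0). The receptor alone was present for Pdgfb with Pdgfrb (0.66 and 84.8 TPM), for the Hedgehog ligand Shh with Ptch1 (0 and 8.78), for Tnf with Tnfrsf1a (0 and 147), for Il1a and Il1b with Il1r1 (0 and 15.1) and for Osm with Osmr (0 and 12.3). These are transcript levels within 1 cell line, and the proteins were not measured.

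**Figure D4:**
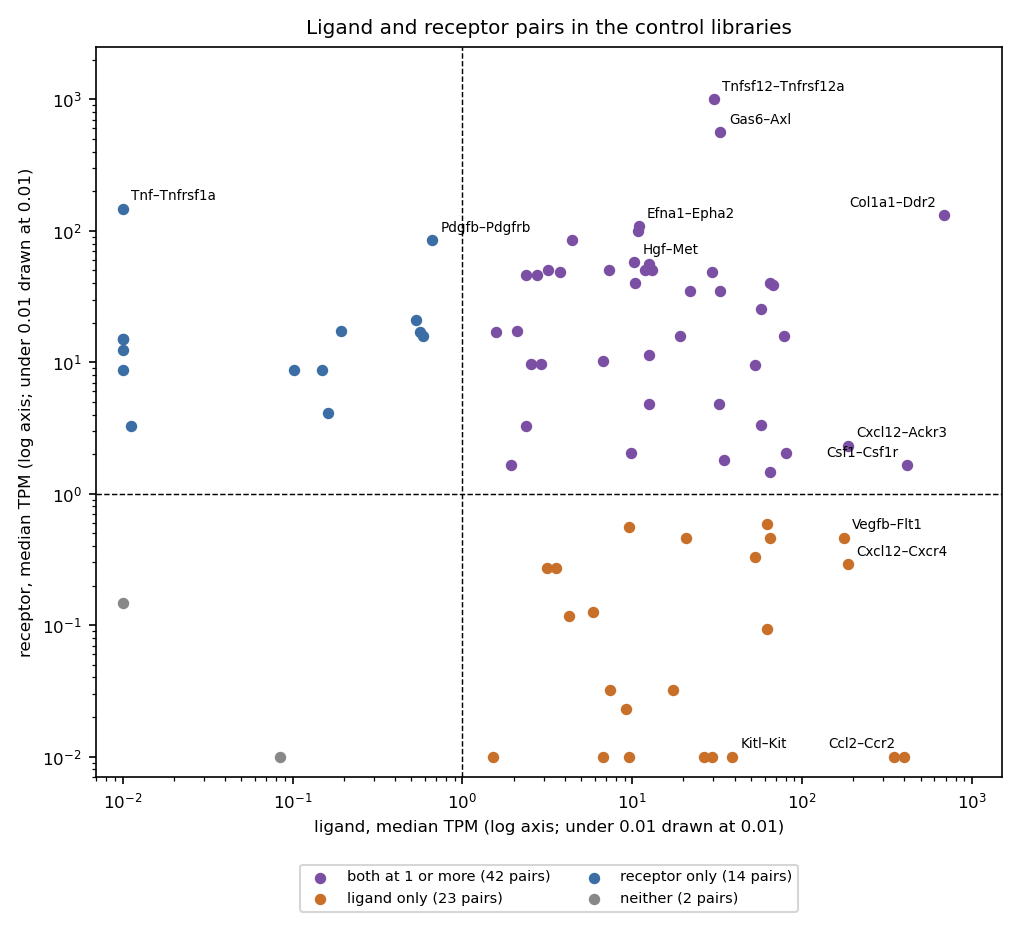
Median TPM of the ligand (horizontal log axis) against that of the receptor (vertical log axis) for 81 pairs, values under 0.01 drawn at 0.01, coloured by which gene reached 1 TPM (dashed lines). Kitl with Kit lies at the lower edge, at 38.6 and 0 TPM, and Tnfsf12 with Tnfrsf12a at the top, at 30.2 and 1001 TPM.

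Between the lines, edgeR called 78 genes higher (0.511% of 15271) and 113 lower (0.74%) in Egfp_OE than in shCtrl at an adjusted p under 0.05. Of the listed genes 12 were among them. By kind, 3 of 125 tested lineage genes were higher and 2 lower, 2 of 123 ligand genes were higher and 1 lower, 1 of 21 antagonists was higher and 2 lower, and 0 of 234 receptor genes were higher and 1 lower. At an unadjusted p under 0.05 (13.8% higher and 10.6% lower over all genes) 25 lineage genes were higher and 14 lower, as were 24 and 17 ligand genes, 5 and 3 antagonists and 37 and 22 receptor genes. By DESeq2 (5.57% and 4.52% over all genes) the calls were 17 and 9 of 121 lineage genes, 16 and 11 of 114 ligand genes, 3 and 3 of 20 antagonists and 18 and 11 of 230 receptor genes. Ptn was the most abundant of those that were higher, with 279, 91.2 and 42.8 TPM in shCtrl and 661, 1497 and 829 TPM in Egfp_OE (log2 difference 3.13 ± 0.65 SE, adjusted p = 0.0455, edgeR). Dlk1 was higher too, at 95.4, 90.6 and 78 against 156, 198 and 392 TPM (1.58 ± 0.24, adjusted p = 0.0247), and so were Sox9, the ephrin gene Efna1 and Igfbp3, with log2 differences of 1.29, 1.15 and 3.12.

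Msln was the lower gene with the smallest adjusted p of the 12. Its values were 95.2, 130 and 131 TPM in shCtrl and 19, 19.2 and 14.9 TPM in Egfp_OE (log2 difference -2.61 ± 0.34 SE, adjusted p = 0.0172, edgeR). Itgb1 was at 621, 631 and 609 against 419, 198 and 310 TPM (-0.92 ± 0.19, adjusted p = 0.0447), and Wnt5a, Nkx6-1 and Tnfrsf11b, the decoy receptor osteoprotegerin, were lower, with log2 differences of -1.88, -2.47 and -1.89. These calls depend on the fit shared with the other groups and on single libraries. With only the 6 control libraries in the fit edgeR called 0 genes, and 2352 were at an unadjusted p under 0.05. DESeq2 with all 12 libraries called 1486. Without shCtrl replicate 2, shCtrl replicate 3 or Egfp_OE replicate 3 edgeR called 2, 2 and 0 genes, with 0 of the 12 among them. Without Egfp_OE replicate 2 it called 336 genes, 6 of the 12 among them, and the adjusted p of Ptn, Igfbp3, Nkx6-1 and Itgb1 then lay between 0.0521 and 0.0722.

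The lines shared 81 of their 100 most abundant genes. Of the genes at 1 TPM or more in shCtrl (13311) 95.6%, and of those in Egfp_OE (13428) 94.7%, were also present in the other line. The shKitl libraries shared 92 of the 100 most abundant genes with the 6 control libraries and held 96.5% of their 13389 genes. The Kitl_OE libraries shared 79 and held 91.6%. Each of these groups shares an arm with 3 of the 6 control libraries. These overlaps are counts with no test.

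Genes at the extremes of variation were compared by the coefficient of variation (SD over mean) across the 6 libraries, whose median was 25.3% over 8344 protein-coding genes at 10 TPM or more, and 14.4% without Egfp_OE replicate 2. Ppia, which encodes the abundant prolyl isomerase cyclophilin A, varied least, at 666, 654 and 645 TPM in shCtrl and 661, 632 and 652 TPM in Egfp_OE (1.84%). It was followed by Tmed2, a cargo protein of early secretory vesicles, at 2.2% and by the phosphatase gene Ptp4a2 at 2.65%, and the next in order, Ube2k, Hat1, Fam92a, Max, Tmem167 and Med8, were at 2.79% to 3.41%.

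The 10 most variable genes were Ifi27l2a, Cdkn1c, Irf7, Mmp3, Bst2, Isg15, Mgp, 1700003F12Rik, Ube2l6 and Xaf1. Of these, Ifi27l2a, Irf7, Bst2, Isg15, Ube2l6 and Xaf1 are known as genes induced by interferon. Isg15, a ubiquitin-like modifier, was at 1026, 265 and 85.1 TPM in shCtrl and 677, 3357 and 169 TPM in Egfp_OE. Bst2, which encodes the antiviral membrane protein tetherin, was at 2114, 634 and 271 TPM in shCtrl and 1031, 7014 and 443 TPM in Egfp_OE. All 10 genes were highest in Egfp_OE replicate 2 and lowest in shCtrl replicate 3, and 6 were second highest in shCtrl replicate 1. The ranking itself used Egfp_OE replicate 2 and so favours genes that stand out in it. By length the 10 genes differ: Ifi27l2a (463 exonic bases) is in class 1, where that library was at 0.30. Xaf1 (4689 bases) is in class 3, where it was at -0.44. A part of length was not tested. Without Egfp_OE replicate 2 the ratio of highest to lowest was still 12.1 for Isg15, 7.8 for Bst2 and 34.7 for Irf7, the transcription factor of the interferon response, and it was 3.64 to 73.3 over the 10 genes.

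**Figure D5:**
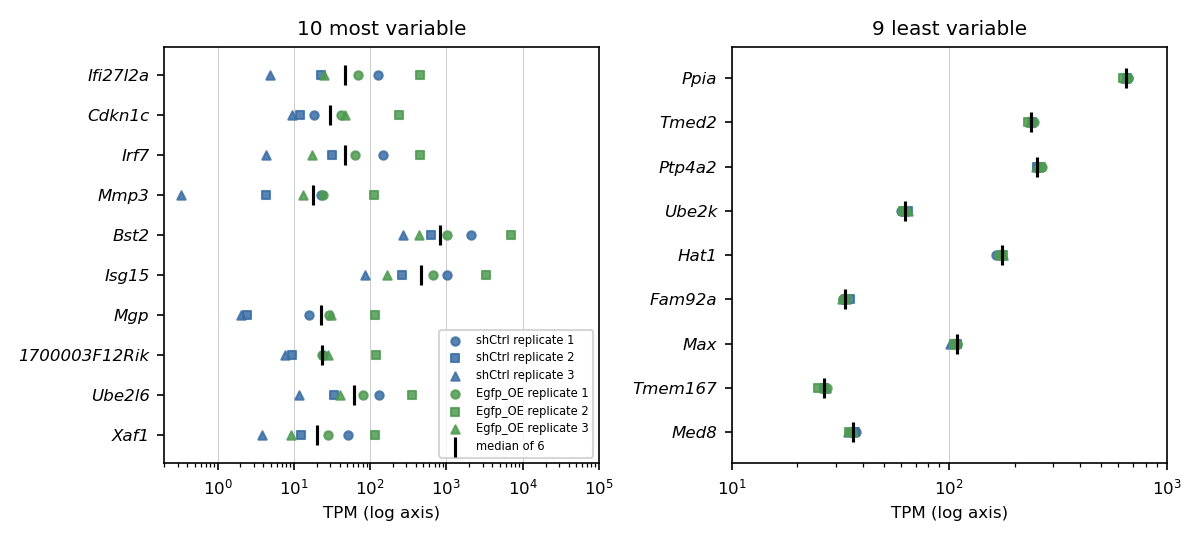
TPM (horizontal log axes) of the 10 genes with the largest (left) and the 9 with the smallest (right) coefficient of variation among genes at a median of 10 TPM or more, 1 point per library and a bar at the median. On the left Egfp_OE replicate 2 is the highest and shCtrl replicate 3 the lowest for all 10 genes; on the right the points nearly coincide.

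The promoter windows of these 10 genes were searched for the core of the interferon-stimulated response element, GAAANNGAAA on both strands, a motif chosen after the genes were seen. RefSeq windows of 250 bases before to 50 after the gene start (GRCm38.p6) were given for 7 of the 10, and the motif was in 2 of them, Isg15 and Bst2. It was in 3.44% of all 32851 windows of that length and in 3.72% of the 9425 genes with a window that were at 1 TPM or more. Irf7, Ube2l6, Xaf1, Mmp3 and 1700003F12Rik had no match in the window. The windows with a match are shown because their genes were the most abundant of the 10, from chr4:156200769-156201068 (minus strand) for Isg15 and chr8:71537423-71537722 (minus strand) for Bst2, written 5′ to 3′ in the direction of the gene with the matches in capitals. The Isg15 window holds 3 overlapping matches whose first bases lie at positions -78, -72 and -66 from the start, and the Bst2 window 2 overlapping matches at -130 and -124. A match is a string of letters and shows no binding.
Isg15: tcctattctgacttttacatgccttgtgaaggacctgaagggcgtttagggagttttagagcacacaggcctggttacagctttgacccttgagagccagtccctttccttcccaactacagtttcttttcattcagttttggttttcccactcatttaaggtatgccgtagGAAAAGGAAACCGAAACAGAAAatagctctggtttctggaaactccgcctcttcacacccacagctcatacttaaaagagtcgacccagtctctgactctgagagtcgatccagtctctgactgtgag
Bst2: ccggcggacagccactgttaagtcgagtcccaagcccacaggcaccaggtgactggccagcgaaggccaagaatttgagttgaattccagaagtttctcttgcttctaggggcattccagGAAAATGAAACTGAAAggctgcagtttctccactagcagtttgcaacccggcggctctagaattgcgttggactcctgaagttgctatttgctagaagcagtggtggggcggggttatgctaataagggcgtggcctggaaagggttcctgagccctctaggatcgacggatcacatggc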

How the data were processed

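The authors deposited raw read counts per gene, for which the submitters' processing notes list STAR 2.5.2b, Subread 1.5.2, featureCounts and GRCm38, and a table of the same libraries as TPM. The deposited TPM were proportional to counts over the GENCODE M21 exonic length, within 1%, for 81% to 81.3% of genes with at least 200 counts in a library. No strand setting or annotation release is named there, so antisense and near-identical genes are uncertain. ERCC entries (92 of 49763) were left out, and 49412 of 49671 gene IDs matched GENCODE M21. Areg, Amy2a5 and Ntn3 were not analysed here, and a few further genes are not reported. Where a symbol had several IDs, the one with the higher median was used.

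Medians were taken over the 6 control libraries, with presence set at 1 TPM. Counts were tested with edgeR 4.0.16 in R 4.3.3 (TMM, filterByExpr, robust quasi-likelihood fit of all 12 libraries, biological coefficient of variation 0.292, Benjamini-Hochberg adjustment, threshold 0.05). Each SE given with a log2 difference was derived from the test, as the absolute difference over the square root of its F statistic. The model was also run on simulated data of a smaller spread, which cannot show how calls hold at the spread of these libraries. The floor of 3 counts covers counting error only. Alternatives used DESeq2 1.42.0 and limma 3.58.1, other thresholds and scalings, and libraries left out. Named genes were the fixed markers with Kitl and Kit, the 30 most abundant, the highest and lowest of each of 37 lists, the listed genes called between the lines, the 10 most and least variable, and the listed pairs, of which some were left out for length, and further list members were named after their values were seen. The members and lists were chosen with earlier results of these data known.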

Additional observations from a re-analysis of the deposited data

Results flagged for a closer look

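Of 17 measures over the 6 control libraries, 5 had a library that lay farther from the others than the Dixon limit at 95% for 6 values, which chance passes in about 1 in 20 groups. Of these, 4 concern Egfp_OE replicate 2: its share of ERCC spike-in counts was 1.35%, its median log2 level against the other libraries was -0.74 in class 4 of genes by length and -1.09 in class 5, the longest, and its Kitl level was 12.6 TPM. The other was Acta2 in shCtrl replicate 1, at 996 TPM. Groups of 3 libraries were not tested singly.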

How the results depend on the processing

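The counts of genes, ligand genes and receptor genes at 1 TPM or more stayed within 1.5 times their value at thresholds of 0.5 and 2 TPM, by mean, by CPM, in every library, in either line, rescaled, and without each library. The share of the 10 most abundant genes was 4.08% in raw counts, since TPM weights short genes, against 9.93%. Between the lines 191 genes were called. Limma on log2(TPM + 0.1) called 104 (90 of the 191 among them), edgeR on all genes with any count 349 (164), DESeq2 1486 (187) and edgeR with only the 6 control libraries 0. Leaving out 1 library gave from 0 to 771. With the replicate number as a replicate block 82 were called, 3 of the 12 listed genes among them. Deviations from the line means correlated at -0.034, -0.057 and 0.249 for same-numbered libraries, and at -0.255 to 0.188 for differently numbered ones. With 3 libraries per line these values cannot show whether same-numbered libraries share a batch. Over 162 refits of 18 named genes, 2 reversed: the log2 difference of Pdgfrb, 0.11, became -0.12 without shCtrl replicate 3 and -0.07 without Egfp_OE replicate 1, and ran up to 0.49 without shCtrl replicate 1. Of the others 55 lost a call, 2 gained one and 103 kept their side. Adjusted p over these refits of the 12 called genes ran up to 0.0948 for Msln and 0.22 for Ptn. These refits did not include limma, the other gene filters or the edgeR fit with only the 6 control libraries, which called 0 genes. Low genes are limited by depth, at 3 reads per library.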
